A study of Mus musculus with 12 samples.

Results

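The Kv4 potassium channel complex was followed here through 9 genes: the pore genes Kcnd1, Kcnd2 and Kcnd3, the calcium-binding partner genes Kcnip1, Kcnip2, Kcnip3 and Kcnip4, and the membrane-spanning partner genes Dpp6 and Dpp10. The members were found by gene name on the array, and all 9 were present, with 97 of 165865 probes and as 9 of 19505 genes. Kcnip4 was chosen by its measured signal, which fell steeply toward the base of the cochlea in these same arrays, so its values are given as a description without a test. The other 8 genes were chosen as its relatives and binding partners, and they were tested.

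The data are 12 single-color Agilent exon arrays of the mouse cochlea, 4 each for the apical, middle and basal turn, hybridized with cRNA from 25 ng of total RNA per sample. All samples came from male C57BL/6 mice of 6 weeks, a standard inbred strain, and the 3 turns were cut from cochleae of 4 animals. A sample held the lateral wall (stria vascularis, spiral ligament and spiral prominence) and the organ of Corti, and the study's methods also list the spiral ganglion neurons. The sources do not say which turn samples share an animal, so p-values are measured against the spread between samples of a turn. The 4 arrays of a turn shared 1 slide and no slide held more than 1 turn, so slide and turn cannot be told apart.

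Kv4 channels carry a fast A-type potassium current that opens below the firing threshold and inactivates quickly, and that delays spikes and limits their backward spread into dendrites. In neurons the pore is built from Kcnd subunits, to which the cytosolic KChIP proteins (Kcnip genes) bind as small EF-hand calcium sensors most of which raise surface delivery and slow inactivation, while the DPP-like proteins DPP6 and DPP10 speed gating. In the cochlea, A-type currents are known from spiral ganglion neurons, the cells that carry the hair cells' signal to the brain.

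Kcnip4 was measured with 8 probes of 60 bases each, spread over chr5:48780889-49280664 (mm9, minus strand). Probes are numbered 5′ to 3′ along the gene, and the first 7 are printed in mRNA sense because the gene's fall was read at each of them. Capitals mark 6 codons that open an EF-hand calcium-binding loop (Asp, any, Asp, Asn or Ser, any, Asp, Asn or Ser, Gly), found by translating every frame without a stop codon in the probe's own direction. The loop start was present in 3 of the 8 Kcnip4 probes, in 2 of 8 for Kcnip1, 3 of 8 for Kcnip2 and 3 of 11 for Kcnip3, against 401 of all 165984 probes, or 0.242%.
Kcnip4 probe 1, chr5:49280605-49280664: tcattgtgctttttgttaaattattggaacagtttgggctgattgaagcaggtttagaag
Kcnip4 probe 2, chr5:48873770-48873829: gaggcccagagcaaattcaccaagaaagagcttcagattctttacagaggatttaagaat
Kcnip4 probe 3, chr5:48810451-48810510: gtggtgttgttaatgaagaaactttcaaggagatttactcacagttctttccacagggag
Kcnip4 probe 4, chr5:48801034-48801093: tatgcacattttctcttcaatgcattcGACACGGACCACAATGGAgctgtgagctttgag
Kcnip4 probe 5, chr5:48789732-48789791: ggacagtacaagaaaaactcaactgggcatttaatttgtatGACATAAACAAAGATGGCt
Kcnip4 probe 6, chr5:48787922-48787981: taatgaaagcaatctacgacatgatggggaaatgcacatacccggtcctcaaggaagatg
Kcnip4 probe 7, chr5:48787245-48787304: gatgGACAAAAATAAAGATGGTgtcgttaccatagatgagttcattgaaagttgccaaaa

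Kcnd2 had 6 probes over chr6:21167302-21679628 (mm9, plus strand). Its probes 2 to 5 are printed because one of them, probe 4, gave a different result from its neighbours, and probe 4 of Kcnd3 (mm9, plus strand) is printed for comparison. Capitals mark the longest run of bases that the probes numbered 4 of both genes share, which is 17 bases long. Aligned without gaps, these 2 probes were identical at 42 of 60 bases.
Kcnd2 probe 2, chr6:21664238-21664297: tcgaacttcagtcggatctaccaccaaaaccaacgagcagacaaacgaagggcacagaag
Kcnd2 probe 3, chr6:21672418-21672477: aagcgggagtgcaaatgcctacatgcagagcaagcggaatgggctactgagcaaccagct
Kcnd2 probe 4, chr6:21673220-21673279: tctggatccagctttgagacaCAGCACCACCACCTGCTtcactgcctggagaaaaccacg
Kcnd2 probe 5, chr6:21676165-21676224: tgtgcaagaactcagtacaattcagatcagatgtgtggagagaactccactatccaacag
Kcnd3 probe 4, chr3:105468405-105468464: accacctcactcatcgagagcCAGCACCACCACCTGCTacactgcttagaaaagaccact

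The signal of a gene is the mean of the log2 signals of its probes after scaling each array to a common 75th percentile of 640.8, and it is printed on the linear scale. Signals of different genes or probes are not comparable as levels, since each probe binds with its own strength. Between 77.4% and 81.4% of the spots of an array were well above background, and none was saturated. Fewer cells of a type and less RNA per cell cannot be told apart in these bulk samples, and the cell content of the turns differed. Of 14 markers of spiral ganglion neurons, 10 were higher in the apical than the basal turn and 1 was lower (limma, adjusted p under 0.05), and their summed signal ran from 32400 to 42300 in the apical, 30100 to 53100 in the middle and 7100 to 29000 in the basal arrays. All 11 hair cell markers and all 8 Schwann cell and satellite glia markers measured were also higher in the apical turn, whereas 7 of 8 stria vascularis and 7 of 7 spiral ligament fibrocyte markers were higher in the basal turn. Bone, blood and macrophage, and muscle markers were higher in the basal turn for 1 of 8, 3 of 7 and 1 of 8 genes. Every neuron, hair cell and glia marker measured had a turn in which a probe was well above background in all 4 samples. Basal array 3 had the highest summed signal of the basal arrays for neurons (29000), hair cells (13800) and glia (12800). Apical array 4 had a summed signal of 6200 for bone markers (other apical arrays 1590 to 2280) and of 29800 for blood and macrophage markers (others 12500 to 16600). Without apical array 4 the differences between apex and base were log2 1.86 for Kcnd2, 1.28 for Dpp6 and 1.42 for Dpp10, all still called.

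Among the 8 tested members, 3 were higher in the apical than the basal turn at a limma adjusted p under 0.05 and none was lower, where 39.2% of all genes were called with 17.6% higher in the apical and 21.6% in the basal turn. The 3 were Kcnd2, Dpp6 and Dpp10. The count was 6 when arrays were scaled to spike-in probes (3 higher in the apical turn), where 73.4% of all genes were called. It was 5 when linear probe signals were averaged (4 higher in the apical turn), where 41.2% were called. Another rule asked for a limma F test over the 3 turns (adjusted p under 0.05) and a 2-fold difference. It called Kcnd2, Dpp6 and Dpp10, 3 of 8, between apex and base against 4.39% of all genes. Between middle and base it called 1 of 8 (Kcnd2) against 2.66%, and between apex and middle 0 of 8 against 0.436%. The median log2 difference of the 8 was 0.26, beside -0.036 over all genes. Between the middle and the basal turn 3 of 8 were called, all higher in the middle turn, against 20.9% of all genes (11.6% higher in the middle and 9.23% in the basal turn), and between the apical and the middle turn 1 of 8, higher in the apical turn, against 12% of all genes (4.42% higher in the apical and 7.61% in the middle turn). The arrays did not overlap for 3 of 8 members between apex and base (38.3% of all genes), 2 of 8 between apex and middle (20.8%) and 3 of 8 between middle and base (24.1%). These comparisons share arrays and are not independent of each other.

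**Figure D1:**
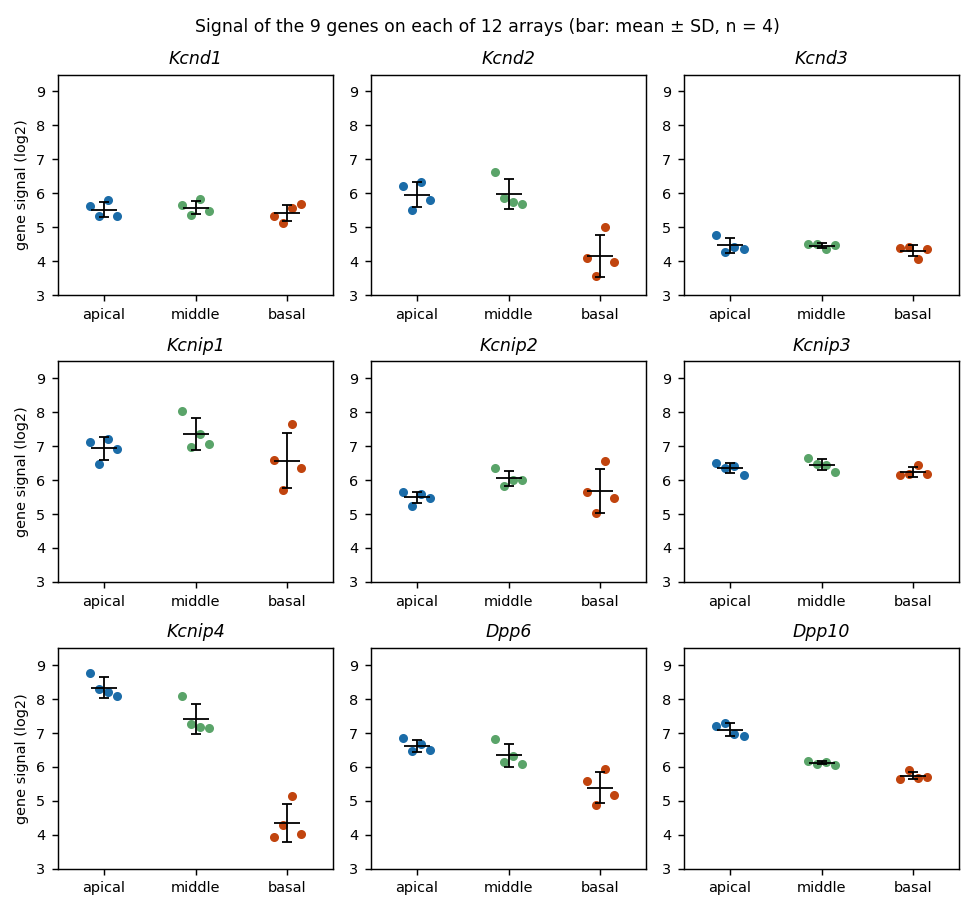
Gene signal (log2) of the 9 members on each of the 12 arrays, in columns for the apical, middle and basal turn; points are arrays and bars show the mean ± SD (n = 4). Kcnip4, Kcnd2, Dpp6 and Dpp10 have all 4 basal arrays below all 4 apical arrays, whereas the turns overlap for Kcnd1, Kcnd3, Kcnip1 and Kcnip3, and for Kcnip2 the middle arrays lie above the apical ones.

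Of the pore genes, Kcnd2, which encodes Kv4.2, the subunit best known from neuronal dendrites, changed along the cochlea. Its signals were 73.6, 45.3, 80.1 and 56.0 on apical arrays 1 to 4, 98.5, 57.8, 53.1 and 50.8 on the middle arrays, and 16.9, 11.7, 32.1 and 15.6 on the basal arrays. Apical and middle arrays overlapped, and all 8 of them lay above every basal array. The mean fell from 63.8 ± 16 (SD, n = 4) in the apical and 65.1 ± 22 in the middle turn to 19.1 ± 9.0 in the basal turn. The apical turn was 3.51-fold above the basal turn (log2 1.81 ± 0.31 SE, limma adjusted p = 0.00095) and the middle turn 3.53-fold above it (log2 1.82 ± 0.31, adjusted p = 0.0031). Between the apical and middle turns the log2 difference was -0.01, with a 95% interval of -0.70 to 0.68 (adjusted p = 0.99).

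The probes of Kcnd2 did not all follow this pattern. Probe 5 gave 91.1, 67.2, 87.4 and 71.4 on the apical arrays and 9.90, 5.51, 45.7 and 6.28 on the basal arrays, a log2 difference of 2.81 (limma adjusted p = 0.0032 over all probes), with 1 of the 4 basal arrays well above background. Probe 4 of the sequences above gave 143, 127, 149 and 125 on the apical, 171, 121, 134 and 152 on the middle and 138, 93.8, 138 and 97.1 on the basal arrays. Its groups overlapped and its log2 difference was 0.24 (adjusted p = 0.26). Probes 2, 3 and 6 were higher in the apical turn by log2 1.97, 2.76 and 1.98, and probe 1 was not well above background on any array. Probe 4 was the only one of the 6 well above background on all 12 arrays. Since probes 2 and 3 were not well above background on any basal array, their apical signal can be stated only as at least 1.59-fold and at least 1.77-fold that of the basal turn. The size of the gene's difference depends on how these dim basal signals are treated. The alternative called normexp here joins normexp background correction, an offset of 50 added to every signal, and quantile normalization. With it the log2 difference of Kcnd2 was 0.52 (limma adjusted p = 0.0026), and with quantile normalization alone 1.59. The parts of the correction and of the offset in the smaller value were not tested.

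Kcnd3, which encodes Kv4.3, and Kcnd1, which encodes Kv4.1, did not pass the test in any comparison with the 75th percentile scaling and all probes averaged. Kcnd3 had signals of 19.2 to 27.4 in the apical, 20.4 to 22.8 in the middle and 16.8 to 21.4 in the basal turn, and its log2 difference between apex and base was 0.15 (95% interval -0.09 to 0.40, limma adjusted p = 0.31). Probe 4 of Kcnd3, which shares the printed run with the flat probe 4 of Kcnd2, averaged 93.4, 95.0 and 94.9 in the apical, middle and basal turns. Probe 2 of Kcnd2, identical to probe 2 of Kcnd3 at 40 of 50 aligned bases, was higher in the apical turn by log2 1.97. Whether shared bases bear on any of these signals was not tested. Of the 6 Kcnd3 probes 1 was called, probe 1 with 115, 119 and 84.6 (log2 0.44, adjusted p = 0.016), and 3 were not well above background on any array. Kcnd1 ran from 34.8 to 56.3 over the 12 arrays with a log2 difference of 0.10 between apex and base (95% interval -0.22 to 0.42, adjusted p = 0.66), and 3 of its 6 probes were likewise never well above background. When only probes well above background were averaged, Kcnd3 was called between apex and base at log2 0.21 (adjusted p = 0.0075) and between middle and base at 0.25 (adjusted p = 0.0074). With linear signals averaged it was called at 0.21 (adjusted p = 0.011) and 0.23 (adjusted p = 0.016). In the other direction, Kcnd3 was called lower at the apex than at the base with spike-in scaling (-0.26, adjusted p = 0.047), which moved the median of all genes to -0.45, and Kcnd1 with linear signals averaged (-0.16, adjusted p = 0.033).

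Among the calcium-sensor partners, Kcnip4, the KChIP4 gene, set the choice of the family. Its signals were 435, 316, 296 and 273 on apical arrays 1 to 4, 271, 155, 146 and 141 on the middle arrays, and 15.4, 19.5, 35.4 and 16.4 on the basal arrays. No array of one turn overlapped with another turn, although middle array 1 came within 2 units of apical array 4. The means of 330 ± 72, 178 ± 62 and 21.7 ± 9.3 (SD, n = 4) correspond to an apical signal 1.89-fold that of the middle turn and a middle signal 8.4-fold that of the basal turn, or 15.9-fold in all (log2 3.99 ± 0.28 SE). The step between the middle and basal turns was larger than that between the apical and middle turns by 2.15 on the log2 scale.

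The 8 probes of Kcnip4 fell by log2 values between 3.34 and 4.64 from apex to base, those with the loop start (probes 4, 5 and 7) by 4.64, 3.42 and 4.60 and the rest by 3.34 to 4.25. All 8 were well above background on every apical and middle array, but in the basal turn only probe 8, the one nearest the 3′ end, was so on all 4 arrays. Probe 8 gave 2670, 2030, 1940 and 1780 on the apical, 2070, 1180, 1110 and 1040 on the middle and 149, 99.1, 234 and 97.0 on the basal arrays, a log2 difference of 3.94. Probes 1, 3 and 5 were not well above background on any basal array and were at least 5.64-, 5.14- and 7.22-fold brighter in the apical turn. Against the probes of the sister genes, no Kcnip4 probe shared a run longer than 17 bases or more than 48 of 60 identical bases (probe 3 against probe 3 of Kcnip1). With 16 added to every signal before the log2 the gene's difference was 3.11, and with normexp, which includes the offset of 50, it was 2.01.

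**Figure D2:**
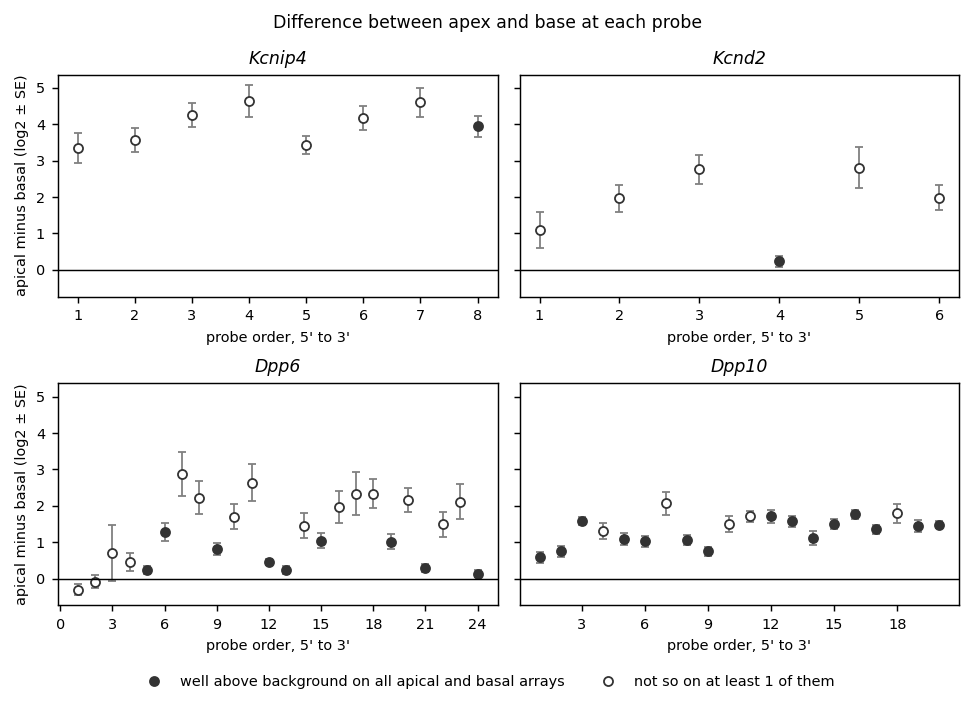
Apical minus basal difference (log2 ± SE, 4 arrays per turn) at each probe of Kcnip4, Kcnd2, Dpp6 and Dpp10, in 5′ to 3′ order; filled points were well above background on all apical and basal arrays, open points were not. The 8 Kcnip4 probes lie between 3.34 and 4.64 and the 20 Dpp10 probes between 0.58 and 2.07, whereas Kcnd2 probe 4 (0.24) and several Dpp6 probes lie near 0.

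None of the sister genes passed the test in any comparison with the 75th percentile scaling over all 12 arrays. Kcnip1, a KChIP known from interneurons, gave 140, 89.0, 149 and 120 in the apical, 262, 125, 165 and 135 in the middle and 97.0, 52.1, 199 and 81.9 in the basal turn, with overlap between all turns. Its log2 difference between apex and base was 0.36 (95% interval -0.45 to 1.17, limma adjusted p = 0.50) and between middle and base 0.79 (-0.02 to 1.60, adjusted p = 0.15). All 8 Kcnip1 probes were well above background on all 12 arrays, and none was called.

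Kcnip2, the KChIP best known from the heart's transient outward current, gave 50.3, 37.9, 47.7 and 44.7 in the apical, 82.6, 56.5, 64.5 and 64.4 in the middle and 50.7, 32.5, 93.7 and 44.4 in the basal turn. All 4 middle arrays lay above all 4 apical arrays, but the difference did not pass the test (log2 -0.56 apical minus middle, 95% interval -1.14 to 0.01, limma adjusted p = 0.16). The basal arrays spanned the range of both other turns, and the difference between apex and base was -0.19 (adjusted p = 0.64). With spike-in scaling Kcnip2 was called lower at the apex than at the base (-0.61, adjusted p = 0.042) and than in the middle turn (-0.72, adjusted p = 0.043), beside medians of -0.45 and -0.23 over all genes, and it was called between apex and middle when only those turns were fitted (adjusted p = 0.039). Kcnip3, also called DREAM or calsenilin because the protein was described as a transcriptional repressor and a presenilin binder too, stayed between 70.4 and 99.6 on all 12 arrays, with a log2 difference of 0.12 between apex and base (95% interval -0.12 to 0.35, adjusted p = 0.44). The sign of this small difference depended on the scaling, and with spike-in scaling Kcnip3 was called lower at the apex (-0.30, adjusted p = 0.032).

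Basal array 3 carried much of the basal spread of Kcnip1 and Kcnip2, being the highest basal array for both. Without it Kcnip1 and Kcnip2 were called between the middle and basal turns (log2 1.14, adjusted p = 0.019, and log2 0.67, adjusted p = 0.018). That made 5 of 8 members called, against 22.2% of all genes in the same fit. In this fit Kcnip2 was also called between the apical and middle turns (log2 -0.56, adjusted p = 0.046), where 11.3% of all genes were called. The Kcnip2 difference between apex and base then had the other sign (0.10, adjusted p = 0.71).

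Both DPP-like partners were higher in the apical turn. Dpp10 gave 148, 158, 124 and 121 on the apical arrays, 72.1, 68.6, 71.3 and 67.2 on the middle arrays and 50.6, 59.9, 51.6 and 52.3 on the basal arrays. The 3 turns did not overlap, and the means of 138 ± 18, 69.8 ± 2.3 and 53.6 ± 4.2 (SD, n = 4) fell by 1.96-fold and then by 1.30-fold. Apex and base differed 2.56-fold (log2 1.36 ± 0.09 SE, limma adjusted p = 1.7e-06), apex and middle by log2 0.97 ± 0.09 (adjusted p = 0.00024), and middle and base by log2 0.38 ± 0.09 (adjusted p = 0.013). The last of these calls was lost with quantile normalization (log2 0.25, adjusted p = 0.11), with spike-in scaling (0.13, adjusted p = 0.36), with normexp (0.10, adjusted p = 0.23) and with the median of the probes (0.27, adjusted p = 0.11). With normexp the difference between apex and base was log2 0.60 (adjusted p = 7.2e-06).

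All 20 Dpp10 probes, spread over chr1:125230381-125942103 (mm9, minus strand), were called higher in the apical turn, by log2 0.58 to 2.07, and the arrays of the 2 turns did not overlap at any of them. The 2.07 was that of probe 7, which was not well above background on any basal array and was at least 1.64-fold brighter in the apical turn, and probe 18 was well above background on 1 apical and 0 basal arrays. The 15 probes well above background on all 12 arrays differed by 0.58 to 1.77. The smallest differences were those of probe 1 (141, 109 and 94.0 in the apical, middle and basal turns) and of probes 2 and 9, both with log2 0.75. Over the 8 tested members 41 of 89 probes were called, all higher in the apical turn, which is 46.1% beside 34.4% of all probes called and 18% higher in the apical turn. Of the 41, Dpp10 gave 20, Dpp6 16, Kcnd2 4 and Kcnd3 1. Probes of a gene on the same arrays are not independent, so the share mostly reflects Dpp10 and Dpp6.

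Dpp6, whose protein is known to help set the A-type current of hippocampal dendrites, gave 116, 88.3, 104 and 90.0 on the apical, 113, 71.2, 80.1 and 67.8 on the middle and 48.0, 29.3, 61.4 and 36.2 on the basal arrays. Apical and middle arrays overlapped, and all 8 lay above the basal ones. Apex and base differed 2.35-fold (log2 1.23 ± 0.22 SE, limma adjusted p = 0.0013), middle and base 1.94-fold (log2 0.95, adjusted p = 0.013), and apex and middle by log2 0.28 (95% interval -0.21 to 0.77, adjusted p = 0.42).

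The 24 Dpp6 probes, over chr5:27144599-28052942 (mm9, plus strand), were less uniform than those of Dpp10, and they belong to 3 transcript records. Of them 16 were called, all higher in the apical turn, and their log2 differences ranged from -0.30 to 2.88. At probe 7, where the difference of 2.88 was found and 1 of 4 basal arrays was well above background, the signals were 239, 137, 205 and 164 in the apical and 34.5, 6.52, 80.9 and 20.8 in the basal turn. At probe 21 they were 479, 397, 451 and 464 against 373, 321, 414 and 359, with a log2 difference of 0.29 that did not pass the test (adjusted p = 0.07). Probes 10, 11, 18 and 22 were not well above background on any basal array and were at least 2.25-, 2.07-, 2.09- and 2.01-fold brighter in the apical turn. The 9 probes well above background on all 12 arrays differed by 0.14 to 1.28, and 5 of them were called. None of probes 1 to 5, at the 5′ end of the gene, was called. Of these, only probe 5 was well above background on all 12 arrays (log2 0.24), and probes 2 and 4 were so on none. Probes 2 to 4 belong to 1 transcript record and probe 5 to another, whereas all called probes share the record of probe 1. The brightest probe, probe 24 nearest the 3′ end, was not called either (6310, 6110 and 5730, log2 0.14). The gene's value therefore depends on how its probes are combined: with linear signals averaged before the log2, in which bright probes dominate, Dpp6 differed between apex and base by log2 0.35 (adjusted p = 0.012) and no longer passed between middle and base (0.24, adjusted p = 0.098). With normexp the difference between apex and base was 0.45 (adjusted p = 0.0019).

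**Figure D3:**
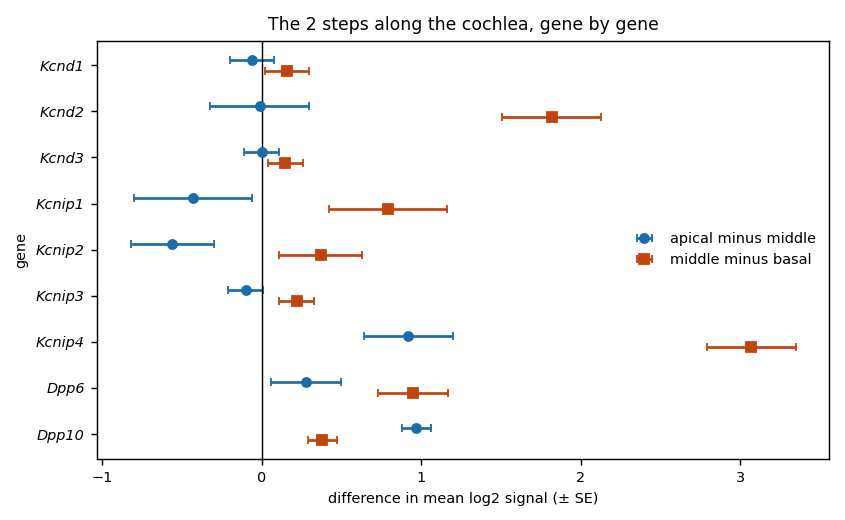
Difference in mean log2 signal (± SE, 4 arrays per turn) between the apical and middle turn (circles) and between the middle and basal turn (squares) for the 9 genes. Kcnd2 (-0.01 and 1.82), Dpp6 (0.28 and 0.95) and Kcnip4 (0.92 and 3.07) have the larger step toward the base, and Dpp10 (0.97 and 0.38) the larger step toward the apex.

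The 4 genes that were lower at the base differed in where they fell. On the log2 scale the middle turn stood 101% of the way from the basal to the apical value for Kcnd2, 77.3% for Dpp6 and 76.9% for Kcnip4, but 28.3% for Dpp10. The limma test of whether the 2 steps differ (apical minus middle, less middle minus basal) called 0 of the 8 members. Of all genes 2.01% were called, 0.861% with a positive and 1.15% with a negative value. An analysis of variance with the same contrast also called 0, and 2 members had an unadjusted limma p under 0.05. These were Dpp10, whose step near the apex exceeded that near the base by log2 0.59 (adjusted p = 0.083), and Kcnd2, whose value was -1.83 (adjusted p = 0.12). Without basal array 3 the test called 2 members, Kcnd2 (-2.12, adjusted p = 0.026) and Kcnip2 (-1.23, adjusted p = 0.034), and the share of all genes called was 6.1%. With only probes well above background it called Dpp10 (0.64, adjusted p = 0.044). That filter kept a probe if any turn had the flag on each of its arrays. Dpp10 probes 4, 7 and 10 met this in the apical turn alone, where the gene was highest. The bearing of this choice on the call was not tested.

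Several members varied together with the neuron markers among arrays of the same turn, and nearly as closely with the Schwann cell and satellite glia markers. Each array's deviation from its turn mean was compared between a member's log2 signal and the mean log2 signal of the 14 markers, over 12 arrays that share their scaling and, within a turn, their slide. Pearson's r was 0.98 for Kcnip1 and for Kcnip2, 0.95 for Dpp6, 0.93 for Kcnd2, 0.75 for Kcnip4, 0.69 for Kcnip3 and 0.50 for Kcnd1, but -0.26 for Dpp10 and -0.35 for Kcnd3. Without basal arrays 2 and 3, which were farthest out in the markers, r was 0.95 for Kcnip1, 0.92 for Kcnip2, 0.95 for Dpp6, 0.88 for Kcnd2, 0.74 for Kcnip4, 0.64 for Kcnip3 and 0.31 for Kcnd1, and the negative values turned to 0.06 for Dpp10 and 0.25 for Kcnd3. Spearman's rho over the 12 arrays was 0.94 for Kcnip1, 0.92 for Kcnip2, 0.96 for Dpp6, 0.85 for Kcnd2, 0.50 for Kcnip4 and -0.22 for Dpp10. With Schwann cell and satellite glia markers r was 0.92 for Kcnip1, 0.96 for Kcnip2, 0.92 for Dpp6, 0.88 for Kcnd2 and 0.70 for Kcnip4. With hair cell markers the values in this order were 0.65, 0.71, 0.65, 0.55 and 0.31. With spiral ligament fibrocyte markers they were -0.74, -0.65, -0.76, -0.74 and -0.81. Among the members themselves the same deviations gave r = 0.97 for Kcnip1 with Kcnip2, 0.96 for Kcnd2 with Kcnip1 and 0.92 for Kcnd2 with Dpp6, against -0.32 for Kcnd2 with Dpp10.

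Between turns the neuron markers were on average 2.42-fold higher at the apex than at the base (log2 1.27) and the hair cell markers 3.03-fold (log2 1.60), beside 15.9-fold for Kcnip4, 3.51-fold for Kcnd2, 2.56-fold for Dpp10 and 2.35-fold for Dpp6. Single neuron markers ran from 1.26-fold lower at the apex (Prph) to 5.48-fold higher (Syt1). Single hair cell markers ran from 1.41-fold (Espn) to 7.65-fold (Slc26a5) higher. The part of the differing cell content in the members' differences was not tested.

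**Figure D4:**
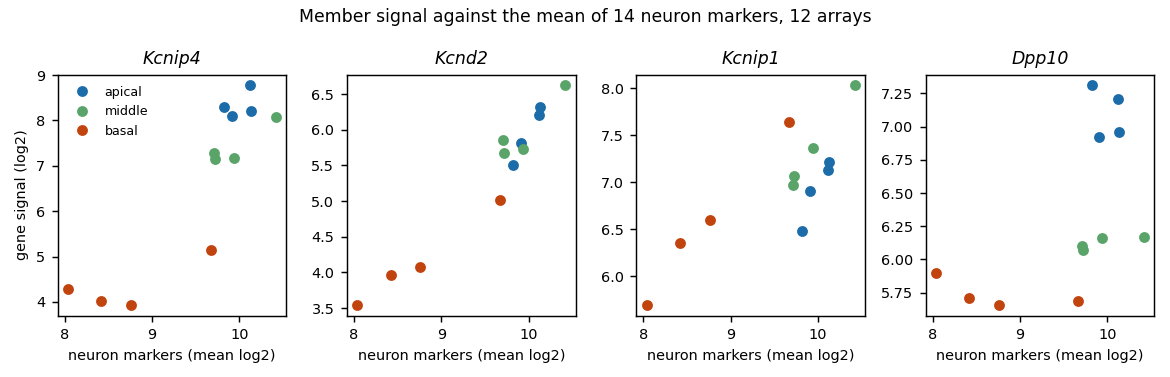
Gene signal (log2) of Kcnip4, Kcnd2, Kcnip1 and Dpp10 on each of the 12 arrays against the mean log2 signal of 14 neuron markers on the same array, colored by turn. Kcnd2 and Kcnip1 follow the markers among arrays of a turn (within-turn r = 0.93 and 0.98), whereas the 4 middle arrays of Dpp10 differ little (67.2 to 72.1 on the linear scale) while their marker means run from 9.71 to 10.42.

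Among 11 other A-type channel genes and subunits reported to modulate Kv4, 5 were higher in the apical and 2 in the basal turn, with a median log2 difference of 0.27. Between middle and base 6 were higher in the middle and 2 in the basal turn, and between apex and middle 1 in each. For this and the next 2 lists, the shares of all genes were 17.6% higher in the apical and 21.6% in the basal turn. Between middle and base they were 11.6% and 9.23%, and between apex and middle 4.42% and 7.61%, the turn nearer the apex first. Kcne4, a single-span subunit that alters several potassium channels, gave 56.9 to 73.0 in the apical, 24.5 to 56.0 in the middle and 11.4 to 14.1 in the basal turn. Its single probe was not well above background on any basal array, so the apical signal was at least 2.33-fold that of the basal turn (limma adjusted p = 2.3e-05). Kcnc4, which encodes the fast channel Kv3.4, differed by log2 0.84 (adjusted p = 0.00084), and Kcnab2, a cytosolic beta subunit, by 1.40 (adjusted p = 0.0054). In the other direction Kcne2, another single-span subunit, gave 346 to 427 in the apical and 465 to 884 in the basal turn (log2 -0.97, adjusted p = 0.0037).

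Of 9 neuronal calcium sensor genes related to the Kcnip genes, 2 were higher in the apical and 1 in the basal turn, with a median log2 difference of 0. Between middle and base 3 were higher in the middle turn, and between apex and middle 1 was higher in the middle turn. Rcvrn, the recoverin gene of photoreceptors, was not well above background in any turn but is in both of these counts, which without it are 2 and 0. Ncs1, the neuronal calcium sensor that is known to bind Kv4 as well, had its 4 apical arrays (365 to 454) above its basal arrays (84.5 to 331), a log2 difference of 1.43 (limma adjusted p = 0.0064).

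Of 7 genes listed as close or distant relatives of Dpp6 and Dpp10, not all of them of the DPP4 family itself, 3 were higher in the apical turn. In the basal turn 2 were higher, and the median log2 difference was 0.06. Between middle and base 2 were higher in the middle turn, and between apex and middle 1 in each. Unlike Dpp6 and Dpp10, which lack peptidase activity, these encode active or related peptidases. Dpp4 itself was higher at the apex by log2 0.86 (756 to 952 against 450 to 487, limma adjusted p = 9.2e-06), Prepl by 0.74 (adjusted p = 0.0042) and Prep by 0.20 (adjusted p = 0.017), whereas Dpp7 and Dpp9 were lower there by log2 differences of -0.53 (adjusted p = 0.00074) and -0.23 (adjusted p = 0.0048).

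Over the 12 arrays, the genes whose log2 signal had the highest Pearson's r with Kcnip4, among 16502 candidates well above background, were Hdac9 (0.990), Pygl (0.987), Rexo4 (0.986), Pygm (0.986) and Pgm2l1 (0.985). Pygl and Pygm encode the liver and muscle forms of glycogen phosphorylase, and Hdac9 a class IIa histone deacetylase. Their own differences between apex and base were smaller than the log2 3.99 of Kcnip4, from 0.25 for Rexo4 to 1.64 for Pygl. Closest to Kcnd2 were Madd (0.993), Sema3e (0.991), Entpd4 (0.990), Slc6a17 (0.990) and Nrxn2 (0.989), of which Slc6a17 encodes a synaptic vesicle transporter and Nrxn2 the presynaptic adhesion protein neurexin 2. These correlations run across the turns, which share slides, and describe likeness of pattern alone.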

How the data were processed

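The fluorescence intensity of each spot was deposited by the authors, extracted from scanned images with Agilent Feature Extraction 10.7.3.1 as background-subtracted, detrended processed signal, together with flags for uneven and well-above-background spots. Arrays were not normalized to each other, and the deposited value table holds the same processed intensities. Probe positions are on mm9.

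R 4.3.3 with data.table (version 1.17.8) was used to read the files. Control spots (7914 of the 180880 on an array) were dropped, and removal of flagged spots took away 119 of 165984 probes. Each array was scaled to a common 75th percentile, as in the study's methods (534 to 721.6 before scaling), log2 transformed, and averaged over repeated spots and then over the probes of a gene name. The scaling assumes equal overall signal in the turns. The number of arrays limits the precision. Turns were compared with lmFit and eBayes of limma 3.58.1 fitted jointly to all 12 arrays and 19505 genes, or 165865 probes, with Benjamini-Hochberg adjustment over all of them and a threshold of 0.05. No pseudocount or low-signal filter was used. On simulated data the fit recovered 87 of 100 genes changed by log2 1 and 96 of 100 by log2 2 between apex and base, with 6 false calls among 19505 genes. The simulation used independent normal noise of each gene's within-turn spread, no slide or animal effect, and no change in the other genes. It checks the code and does not measure false calls in the real arrays, where slide and turn coincide.

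The members and all lists were chosen with earlier results of these data known. Named were the members, related genes called between apex and base whose arrays did not overlap, and the 5 genes most correlated with Kcnip4 and with Kcnd2, and 1 gene that this rule names is not reported here. A spot was well above background by the software's flag. The alternative with only such probes kept those flagged throughout any turn, even if not in the other turns. The bound of a probe not well above background is the ratio of its mean apical signal to the higher of its own basal signal and the lowest signal among well-above-background probes of each basal array. Other background corrections, scalings, probe averages, filters, tests and left-out arrays were tried. Loxhd1 and Sox10 were not found by name, and Kcne5 was found as Kcne1l. Figures were drawn with matplotlib 3.10.9.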

Additional observations from a re-analysis of the deposited data

Results flagged for a closer look

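Within each turn, the highest or lowest of the 4 arrays was compared with the range of the others for the 9 genes. Of 27 groups, 2 held an array that stood apart (gap over range above 0.829), and chance alone gives about 1 in 20. Kcnip4 was 271 on middle array 1, with the other middle arrays at 155, 146 and 141 (gap over range 0.857). That array also had the highest mean log2 signal of the neuron markers among the middle arrays (10.42, the others 9.71 to 9.94). Kcnip3 was 88.0 on basal array 3, with the other basal arrays between 70.6 and 72.7 (0.870), and that array had the highest neuron marker mean among the basal arrays (9.67, the others 8.04 to 8.76). Whether the marker levels bear on these values was not tested.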

How the results depend on the processing

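Kcnd2, Dpp6 and Dpp10 stayed called higher in the apical than the basal turn under all 14 alternatives and in all 12 fits without 1 array. Among the alternatives, the deposited value table holds the same intensities as the main fit and could not differ. The filter for probes well above background kept Kcnd2 probes 2 and 3 and Dpp6 probes 10, 11, 18 and 22. These were not well above background on any basal array. With it the differences were log2 1.95 for Kcnd2 and 1.44 for Dpp6, and the bearing of these probes was not tested. The count of called members between apex and base was 6 with spike-in scaling, 5 with log2 of the mean linear signal and 4 with only probes well above background. The shares of all genes called in these fits were 73.4%, 41.2% and 50.7%. Between apex and middle the count was 2 with spike-in scaling (31.6% of all genes), 2 when only those turns were fitted (9.01%) and 0 with the F test and 2-fold rule (0.436%). Without 1 array it was 1 to 2, with the 2 found without basal array 3 (11.3% of all genes). Between middle and base it was 2 with quantile normalization (20.3% of all genes), spike-in scaling (39.8%), normexp (23.6%) and the median of probes (16.5%). It was 4 with only probes well above background (27.8%), 1 with the F test and 2-fold rule (2.66%) and 3 to 5 without 1 array. The 5 were found without basal array 3 (22.2%). For the difference of the 2 steps it was 1 with only probes well above background (2.13%) and 0 to 2 without 1 array, with the 2 found without basal array 3 (6.1%). Spike-in scaling moved the median difference between apex and base over all genes from -0.036 to -0.45 and the share of calls higher at the apex from 44.9% to 6.41%, and median scaling moved them to -0.15 and 26.5%.

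Signs turned as follows. Between apex and base, Kcnd1 was -0.05 with quantile normalization, -0.02 with median scaling, -0.32 with spike-in scaling, -0.04 with normexp, -0.16 with linear means (called, adjusted p = 0.033) and -0.06 with probes well above background. Kcnip3 was -0.08, -0.05 and -0.01 with quantile, normexp and linear means and -0.30 with spike-in scaling (called, adjusted p = 0.032), which also gave -0.26 for Kcnd3 (called, adjusted p = 0.047) and -0.06 for Kcnip1. Between middle and base, Kcnd1 was -0.10 (spike-in), -0.02 (normexp), -0.03 (linear means) and -0.05 (well above background), Kcnd3 -0.02 (quantile) and -0.11 (spike-in), and Kcnip3 -0.04 (spike-in). Between apex and middle, Kcnd2 was 0.15 with the median of probes, 0.01 with linear means, 0.11 with probes well above background and 0.01 with 16 added, and Kcnd1 was 0.07 with the median of probes. For the difference of steps, Kcnd3 was 0.04 (quantile) and 0.08 (median of probes), and Kcnd1 0.03 (well above background). Without 1 array, Kcnd2 between apex and middle ran from -0.13 to 0.21, Kcnd1 from -0.15 to 0.02, and Kcnip2 between apex and base from -0.41 to 0.10. The cause of these changes was not tested. Signal over background limits the folds at the base, where 1 of 8 Kcnip4 and 1 of 6 Kcnd2 probes were well above background on all 4 arrays.

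As 4 animals gave 12 samples, samples of different turns share animals, but the sources do not say that the same number marks the same animal. Deviations of same-numbered samples had r between -0.037 and 0.23 (mean 0.096), 6 of 12 pairs above 0.1. When these numbers entered the fit as a replicate block, 3, 1, 3 and 0 members were called in the comparisons of apex with base, apex with middle, middle with base and of the steps, as without it, and 42 of 89 probes against 41. The shares of all genes called were then 41.9%, 17%, 25.9% and 2.58%, beside 39.2%, 12%, 20.9% and 2.01% without the block.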
